A study of Mus musculus with 2 samples.

Results

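Ccr7, Fscn1, Ccl22, Cacnb3, Nudt17 and Socs2 are 6 genes known to be raised together in dendritic cells (DCs) that have matured and are leaving a tissue. They were taken by symbol from the 2000 genes of a deposited table of scaled single-cell RNA values, and all 6 were found there. The values come from 2 single-cell libraries of whole mouse pancreatic tumors. The host mice were C57/BL6, and cells of MT4, a pancreatic adenocarcinoma organoid line of the KPC mouse model, had been placed in the pancreas 14 days earlier. Both groups of hosts had floxed alleles of Ahr, the aryl hydrocarbon receptor gene, and 3 animals were pooled for each library. The first library (fl/fl) had no Cre by its label, and the second, labelled Ahr cKO, had LysM-Cre in addition. This Cre is active in most macrophages and neutrophils and in only some DCs, so its label does not say that Ahr was deleted in the cells described here. The mean scaled value of Ahr itself was 0.016 over all fl/fl cells (SD 1.07) and -0.020 over all cells of the library labelled cKO (SD 0.88). It was 0.048 in fl/fl and 0.21 in cKO Macrophage-like cells, 0.23 and 0.31 in Monocyte-like cells, and -0.22 and -0.21 in Neutrophil-like cells. In Other DC-like cells it was 0.31 and 0.39, and in the Migratory DC-like cells described below -0.14 in both. Each of these differences is smaller than the SD over cells. Which part of the transcript the reads covered and which exon was floxed are not given in the sources used here, so these values do not check the deletion. Both pools were sorted for live cells only.

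A DC that takes up antigen and is activated switches to a migratory state. It gains the receptor CCR7, follows the chemokines CCL19 and CCL21 into lymph vessels, rearranges its actin skeleton and presents antigen to T cells in the draining lymph node. Ccr7 encodes that receptor, and naive T cells and B cells use it as well. Ccl22 encodes a chemokine that draws CCR4-bearing T cells, among them regulatory T cells. Fscn1 encodes fascin, which bundles actin in the long processes of mature DCs. Cacnb3 encodes a beta subunit of voltage-gated calcium channels, Socs2 an inhibitor of cytokine signals through JAK and STAT proteins, and Nudt17 an enzyme of the Nudix hydrolase family.

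In the GRCm38 annotation the 6 genes lie on 6 chromosomes and all are protein coding. Ccr7 spans 99144196 to 99155077 on chromosome 11, Fscn1 142960343 to 142973185 on chromosome 5, and Ccl22 94745590 to 94751699 on chromosome 8. Cacnb3 spans 98630840 to 98644529 on chromosome 15, Nudt17 96706067 to 96708562 on chromosome 3, and Socs2 95385362 to 95417180 on chromosome 10. RefSeq promoter windows of 300 bases (GRCm38.p6) were matched for 4 of the 6 genes, in 5 windows. Because the mice differ in Ahr, the windows were searched on both strands for GCGTG, the core of the element that AHR and its partner ARNT bind. It was found in a window of all 4 genes and in 4 of the 5 windows, against 32.4% of all 32851 promoter windows of the same length. The Cacnb3 windows (98632078 to 98632377 and 98634517 to 98634816) lie inside the annotated gene, after its start, and the first of them holds the match. The kappaB motif of NF-kB factors was in 0 of the 5 windows, against 8.46% of all windows. A match is a run of letters and no evidence of binding.
The parts of 3 windows that lie before the annotated gene start are shown to let these letters be seen, with GCGTG or its reverse complement CACGC in capitals: Fscn1 at chr5:142960105-142960342 (plus strand), Ccl22 at chr8:94745434-94745589 (plus strand) and Nudt17 at chr3:96708563-96708810 (minus strand).
Fscn1: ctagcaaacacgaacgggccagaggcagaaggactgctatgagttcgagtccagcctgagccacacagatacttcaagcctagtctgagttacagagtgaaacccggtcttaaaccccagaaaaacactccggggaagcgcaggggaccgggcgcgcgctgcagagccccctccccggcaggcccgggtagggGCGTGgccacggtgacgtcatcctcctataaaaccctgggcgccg
Ccl22: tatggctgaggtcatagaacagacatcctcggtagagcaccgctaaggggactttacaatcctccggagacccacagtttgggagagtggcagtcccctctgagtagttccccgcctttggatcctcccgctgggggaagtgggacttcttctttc
Nudt17: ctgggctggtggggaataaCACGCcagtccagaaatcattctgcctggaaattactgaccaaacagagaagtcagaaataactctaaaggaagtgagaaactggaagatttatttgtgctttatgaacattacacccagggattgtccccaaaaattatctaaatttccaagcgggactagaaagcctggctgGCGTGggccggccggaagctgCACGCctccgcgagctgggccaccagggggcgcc
The Nudt17 stretch holds 3 matches, which start 229, 55 and 34 bases before the gene start. The Fscn1 stretch holds 1, starting 45 bases before it. The Ccl22 stretch holds none, since the match of that window does not lie wholly before the gene start.

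Some facts of the libraries bear on every value that follows. The table holds 5196 fl/fl and 4577 cKO cells, and reads or molecules per cell are unknown. A value is scaled per gene over all cells, has no unit, is capped at 10 and cannot be compared between genes. In the fl/fl library each gene has a lowest value shared by most cells, taken here as its zero level. The median fl/fl cell was above that level for 108 genes. In the cKO library many values lie below it, so shares of cells above zero are given for the fl/fl library alone. The libraries share 656 cell barcodes, which is 12.6% of fl/fl and 14.3% of cKO cells, and in 94.8% of these pairs both cells lie in the same cluster. They are not spread evenly. Of these fl/fl cells, 569 lie in 2 clusters, an unnamed one led by Vim, Atf3 and Cd14 and the Monocyte-like one. Shared barcodes make up 54.3% of fl/fl and 61.5% of cKO Monocyte-like cells. With 1 library per genotype there is no replicate and no test, and the exact 95% intervals on shares cover counting error only.

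To see where the 6 genes were expressed, cells of both libraries were clustered without them, and clusters were named from markers that did not include them. This gave 23 clusters. One, led by Serpinb6b, Tbc1d4 and Traf1, was named Migratory DC-like and held 59 fl/fl and 40 cKO cells. With 15 principal components, resolution 0.5 or approximate neighbours no cluster took this name, so it rests on the clustering used. All 18 measured migratory DC markers, from which it was named, were above zero in over 10% of its fl/fl cells, and 8 of them in over 50%, among them Traf1 (67.8%), Tmem123 (62.7%), Etv3 (61.0%) and Cd83 (55.9%). Of the cDC1 markers only Irf8 was above zero in over 50% of these cells (57.6%), while Itgae was at 0. T cell, B lineage, macrophage, monocyte and erythroid markers averaged lower as lists than in all other cells, but single markers were present. Over 10% of the fl/fl cells were above zero for 1 of 14 T cell, 1 of 6 B lineage, 4 of 11 macrophage, 4 of 10 monocyte and 5 of 8 erythroid markers. Of the monocyte markers 1 passed 50%. The 10% was also passed by 3 of 7 plasma cell, 2 of 7 plasmacytoid DC, 2 of 9 cDC2 and 2 of 14 neutrophil markers. The interferon-induced gene Ifit3 was also among the 10 leading genes of the cluster. Another 2 clusters were named Other DC-like (321 fl/fl and 175 cKO cells together), one led by Cst3, Plet1 and H2-Ab1 and one by H2-DMb1, Cd209a and Clec10a.

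All 6 genes were above zero in the largest share of cells in the Migratory DC-like cluster, out of 22 clusters with at least 20 fl/fl cells. Ccr7 was above zero in 40 of its 59 fl/fl cells (67.8%, 54.4% to 79.4%), Fscn1 in 36 (61.0%, 47.4% to 73.5%) and Cacnb3 in 30 (50.8%, 37.5% to 64.1%). Socs2 was above zero in 28 cells (47.5%, 34.3% to 60.9%), Ccl22 in 19 (32.2%, 20.6% to 45.6%) and Nudt17 in 16 (27.1%, 16.4% to 40.3%). For each gene this interval lay above that of the next cluster, which did not hold for Fscn1, Cacnb3 and Socs2 when clusters were made at the finer resolution described below for each. In Neutrophil-like cells, which serve here as a type not known for these genes, the shares ran from 0% for Cacnb3 (0 of 777 cells, which allows up to 0.386%) to 0.772% for Ccr7. The median number of genes above zero was 84 in those cells and 123 in the Migratory DC-like cells.

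**Figure D1:**
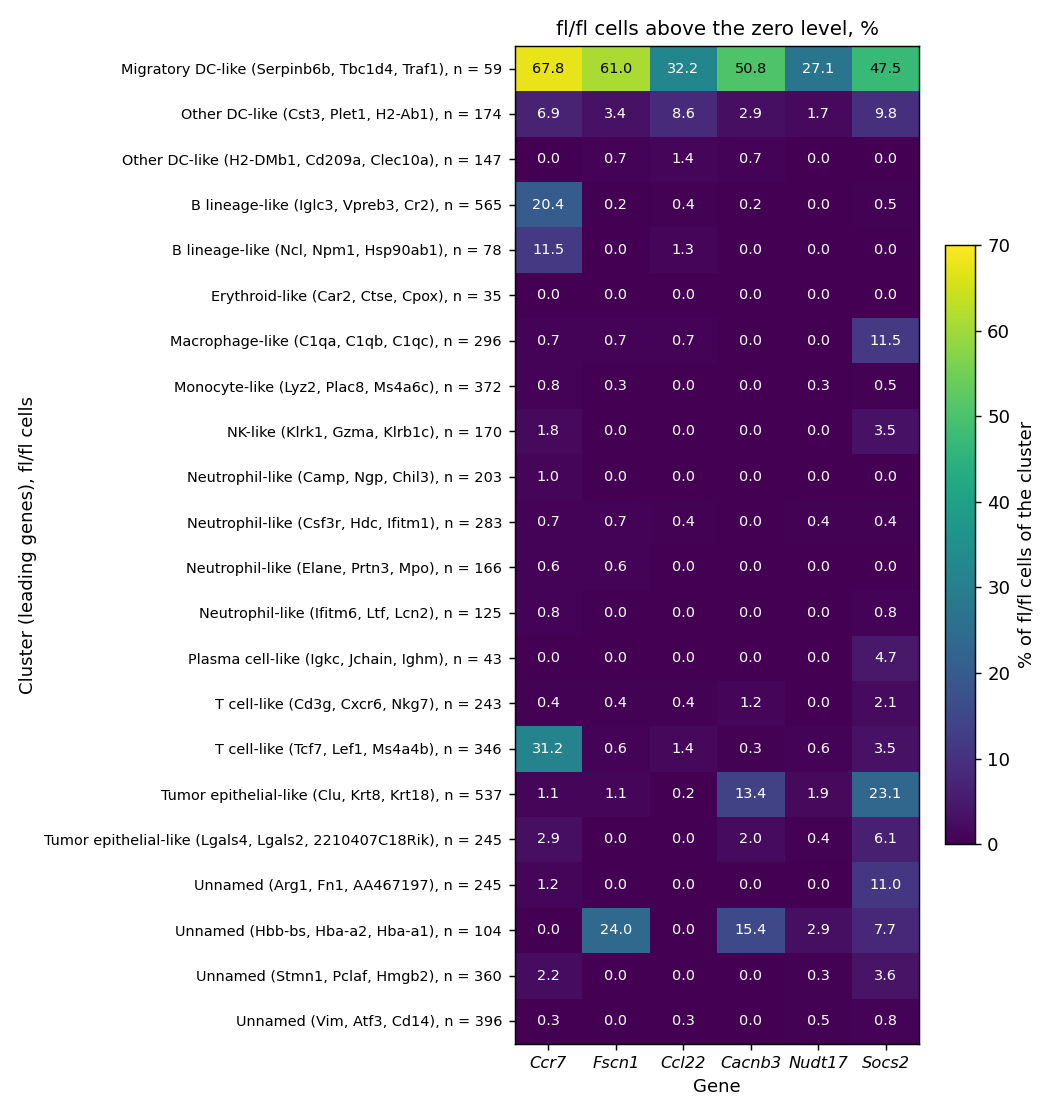
Share of fl/fl cells above the zero level (%, colour and number) for the 6 genes (columns) in the 22 clusters with at least 20 fl/fl cells (rows, with their leading genes and number of cells). The Migratory DC-like row holds the highest share for all 6 genes, from 27.1% for Nudt17 to 67.8% for Ccr7.

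The genes differed in how far they were confined to this cluster. Ccr7 was found mainly in lymphocytes: of 324 fl/fl cells above zero, 12.3% were Migratory DC-like, 33.6% T cell-like and 38.3% B lineage-like. The share above zero was 31.2% (26.4% to 36.4%) in the T cell-like cluster led by Tcf7 and Lef1, genes of naive and memory T cells, and 0.412% in the one led by Cd3g, Cxcr6 and Nkg7. It was 20.4% (17.1% to 23.9%) in the B lineage-like cluster led by Iglc3, Vpreb3 and Cr2 and 11.5% (5.41% to 20.8%) in the one led by Ncl and Npm1, and these intervals overlap. In the Cst3 and Plet1 cluster of other DCs it was 6.90%, and in the Cd209a and Clec10a cluster it was 0 of 147 cells, which allows up to 2.04%.

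Ccl22 was the gene of the 6 with the largest part of its cells among other DCs. Of 50 fl/fl cells above zero, 38.0% were Migratory DC-like and 34.0% Other DC-like. The share was 8.62% (4.91% to 13.8%) in the Cst3 and Plet1 cluster and 1.36% in the Cd209a and Clec10a cluster. In 11 of the 22 clusters no fl/fl cell was above zero.

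Fscn1 had a second site outside the immune cells. Of 84 fl/fl cells above zero, 42.9% were Migratory DC-like, and 25 lay in an unnamed cluster of 104 cells led by hemoglobin genes and, with them, Sparc, Col1a1 and Col3a1 (16.2% to 33.4% of its cells). With clusters made at a finer resolution of 2, the collagen cells formed a Fibroblast-like cluster of 55 fl/fl cells, and Fscn1 was above zero in 45.5% of them (32.0% to 59.4%), an interval that overlaps that of the Migratory DC-like cells at this resolution (63.6%, 50.9% to 75.1%).

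Cacnb3 and Socs2 were above zero in more Tumor epithelial-like cells than DC-like cells. Of 134 fl/fl cells with Cacnb3 above zero, 57.5% were Tumor epithelial-like and 22.4% Migratory DC-like. Of 303 with Socs2, 45.9% were Tumor epithelial-like, 11.2% Macrophage-like and 9.24% Migratory DC-like. The share in the epithelial cluster led by Clu, Krt8 and Krt18 was 13.4% (10.6% to 16.6%) for Cacnb3 and 23.1% (19.6% to 26.9%) for Socs2, at a median of 203 genes above zero per cell. At resolution 2 the epithelial cluster led by Krt19 and Krt8 had Socs2 above zero in 36.3% of cells (upper bound 43.0%), and its interval overlaps that of the Migratory DC-like cells (43.9%, 31.7% to 56.7%). The Cacnb3 intervals of Fibroblast-like (29.1%, 17.6% to 42.9%) and Migratory DC-like cells (53.0%, 40.3% to 65.4%) also overlapped at that resolution. Macrophage-like cells had Socs2 above zero in 11.5% (8.09% to 15.7%). Nudt17 was the least frequent of the 6, with 40 fl/fl cells above zero in all, of which 16 were Migratory DC-like and 11 Tumor epithelial-like.

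The 6 genes were also found together in single cells. Of the 5196 fl/fl cells, 4499 had none of them above zero, 564 had 1, 77 had 2 and 56 had 3 or more. Of the 56, 35 were Migratory DC-like (62.5%, 48.5% to 75.1%), 7 lay in the Cst3 and Plet1 cluster of other DCs, 6 in a tumor epithelial cluster and 5 in the hemoglobin and collagen cluster. With 4 or more genes above zero there were 24 cells, and 23 of them were Migratory DC-like (95.8%, 78.9% to 99.9%). All 6 genes were above zero in 8 cells, all of them Migratory DC-like. Depth differed between these cells. The Migratory DC-like cells with 5 or 6 genes above zero had a median of 249.5 genes above zero in all. Those with 3 or 4 had 86, and those with up to 2 had 113. That last group includes 14 cells with none of the 6 genes, at a median of 122. From 1 to 6 genes the medians were 59, 80, 65.5, 118, 237 and 304, which rose with the count but for a dip at 3. Over all fl/fl cells the medians at 0 to 4 genes were 103, 137, 658, 229.5 and 118. The part of depth in the count was not tested.

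**Figure D2:**
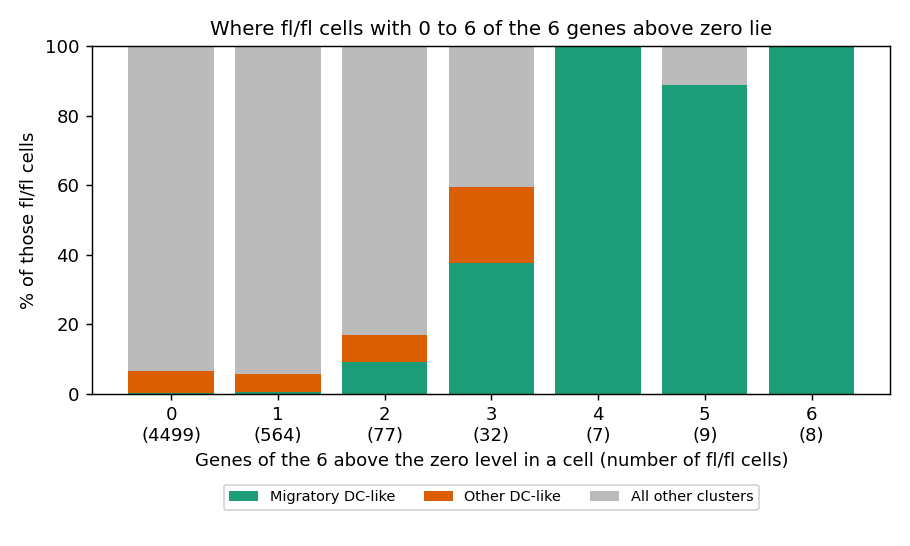
Share (%) of fl/fl cells in the Migratory DC-like cluster, in the Other DC-like clusters and in all other clusters (bar colours), for cells with 0 to 6 of the 6 genes above the zero level (horizontal axis, with the number of cells below). The Migratory DC-like share goes from 12 of 32 cells at 3 genes to 7 of 7 at 4 and 8 of 8 at 6.

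Within the 59 Migratory DC-like fl/fl cells the closest pair was Ccr7 and Fscn1. Both were above zero in 35 cells and neither in 18, so 97.2% of the Fscn1 cells also had Ccr7, and 87.5% of the Ccr7 cells also had Fscn1. Of the cells with each other gene, those that also had Ccr7 made up 94.7% for Ccl22, 93.8% for Nudt17, 92.9% for Socs2 and 86.7% for Cacnb3. The loosest pair was Ccl22 and Socs2, with 12 cells above zero for both, 42.9% of the Socs2 cells and 63.2% of the Ccl22 cells.

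The cells that lacked the genes were a group of their own. Of the 59 fl/fl cells 14 have a barcode that is also in the cKO library, and of the 40 cKO cells 15 do. None of these 14 fl/fl cells had any of the 6 genes above zero, while each of the other 45 had at least 1. Without shared barcodes the shares were therefore 88.9% for Ccr7 (75.9% to 96.3%), 80.0% for Fscn1, 66.7% for Cacnb3, 62.2% for Socs2, 42.2% for Ccl22 and 35.6% for Nudt17. The finer clustering made nearly the same cut. It left 34 cells (15 fl/fl and 19 cKO) out of its Migratory DC-like cluster, and all 29 cells with a shared barcode were among them. These 34 cells were led by the interferon-induced genes Ifit3, Ifit2, Isg15 and Rsad2. In their 15 fl/fl cells Ccr7 and Socs2 were above zero in 1 each and the other 4 genes in none. It also added 27 cells, led by Bcl2l14, Cst3 and Serpinb6b, of which 22 were fl/fl. Among these 22, Ccl22 was above zero in 9 (40.9%), Ccr7 in 7 (31.8%) and Socs2 in 2 (9.09%).

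The levels give the same picture. Over the 59 fl/fl Migratory DC-like cells Ccr7 ran from its zero level of -0.21 over a median of 4.42 to the cap of 10, with a mean of 4.39 (SD 4.08), and 9 cells were at the cap. Fscn1 ran from -0.086 over a median of 5.86 to 10, with a mean of 5.07 (SD 4.67) and 22 cells at the cap. Cacnb3 had a median of 1.14 and a mean of 4.08 (SD 4.51). For Ccl22, Nudt17 and Socs2 the median cell was at the zero level, and the means were 1.92 (SD 3.60), 2.51 (SD 4.32) and 2.21 (SD 3.18). In each of the 6 genes some fl/fl cells were at zero, some at the cap and some between, and of the cells above zero those at the cap were 3 of 28 for Socs2 and 11 of 16 for Nudt17. In Other DC-like fl/fl cells the means lay between -0.032 (Ccr7) and 0.18 (Ccl22).

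Set against these other DCs, all 6 genes were higher in Migratory DC-like fl/fl cells by at least 0.5, while 5.2% of the 2000 genes were higher and 1.55% lower by that much. The scaled differences were 5.07 for Fscn1, 4.42 for Ccr7, 4.02 for Cacnb3, 2.53 for Nudt17, 2.18 for Socs2 and 1.74 for Ccl22. Their median was 3.27, beside -0.011 over all genes. Since each gene has its own scale, the order of these values carries no meaning and a limit of 0.5 is a different change for each gene. The clusters were made from other genes of the same cells, so these differences describe the cluster and are no test.

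Related genes are given from lists drawn up around the roles of the 6, without the 6 themselves. Several of their genes are also among the markers that named the Migratory DC-like cluster, so their being higher restates the naming and supports nothing: these are Tbc1d4, Marcksl1, Anxa3, Il4i1, Cd83, Cd200, Il12b, Cd274, Traf1, Ccl5 and Ccl17. Among cytoskeleton and motility genes, 4 of the 8 measured were higher by at least 0.5 and none lower, with Tbc1d4, a regulator of vesicle traffic, at 3.22 and Marcksl1, an actin-binding protein gene, at 2.23. Only Cd63 (1.31) of the 4 is no marker of the cluster. Among regulatory and maturation genes of DCs, 5 of 9 were higher and none lower, and all 5 are markers of the cluster. They include Il4i1, which encodes an amino acid oxidase whose products can activate AHR (2.82), the maturation marker gene Cd83 (1.71) and Cd200 (1.55). Of 4 genes of the NF-kB pathway 3 were higher, with Traf1 at 3.03, Bcl2a1b at 1.47 and Bcl2a1d at 0.83. Bcl2a1b and Bcl2a1d are near-identical copies, so reads could be split between them. Of the 5 measured chemokine and receptor partners 2 were higher, Cxcl16 (1.34) and Ccl5 (0.74), and 1 was lower, the cDC1 receptor gene Xcr1 (-0.95). Ccl17, which encodes the other ligand of CCR4, was 0.39 higher and did not reach 0.5. Among cytokine signal genes Il2ra passed (0.64), while Socs1, a relative of Socs2, did not (0.42). The 1 measured relative of Cacnb3 and Nudt17 was the calcium channel gene Cacna1s (1.15). Of 9 antigen uptake and resident DC genes 4 were lower and none higher, namely the lectin genes Mgl2 (-0.95), Cd209a (-0.84) and Clec10a (-0.63) and the integrin gene Itgax (-0.67). All 4 are cDC2 markers of the naming, and Xcr1 is a cDC1 marker of it. A cluster took the name Migratory DC-like only where its cDC1 and cDC2 scores stayed under 0.5 of its migratory DC score. Their being lower therefore also restates the naming and supports nothing.

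Genes of like pattern were found by Pearson correlation over the 5196 fl/fl cells, which share a library and differ in depth. Of all genes, Fscn1 had the highest correlation with Ccr7 (0.53), with Ccl22 (0.45), with Cacnb3 (0.46), with Nudt17 (0.48) and with Socs2 (0.24). Among genes outside the 6, Tbc1d4 came first for Ccr7 (0.41), Cacnb3 (0.39) and Socs2 (0.19), Serpinb6b for Fscn1 (0.44), Ccl17 for Ccl22 (0.39) and Bcl2l14 for Nudt17 (0.31). The 3 lowest correlations among the 6 were those of Socs2 with Ccl22 (0.052), with Nudt17 (0.14) and with Ccr7 (0.18). Over the means of 22 clusters, the genes closest to the mean of the 6 were Gm13546, Plppr4, Scin, Strip2 and Il12b, with correlations from 0.985 (Il12b) to 0.997 (Gm13546). All 22 points come from the same library. The Migratory DC-like cluster is 1 of them and had the highest share above zero for each of the 6 genes. A correlation near 1 can therefore rest on that 1 point. Plppr4, at 0.995, was above zero in only 5.08% of Migratory DC-like and 0.312% of Other DC-like fl/fl cells. Scin, which encodes an actin-severing protein, was above zero in 18.6% of Migratory DC-like and 0.623% of Other DC-like fl/fl cells. It is one of the markers that named the Migratory DC-like cluster, so this difference restates the naming. Il12b, Tbc1d4, Serpinb6b and Ccl17 are such markers too.

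The design sets tumors of Ahr fl/fl mice against those of mice labelled Ahr cKO. The Migratory DC-like cluster made up 1.14% of fl/fl cells (0.865% to 1.46%) and 0.874% of cKO cells (0.625% to 1.19%), and 15.5% and 18.6% of DC-like cells, with overlapping intervals in both cases. Without shared barcodes the shares of all cells were 0.991% (0.724% to 1.32%) and 0.638% (0.413% to 0.940%), which also overlap. At resolution 2 they were 1.27% (0.984% to 1.61%) and 0.568% (0.371% to 0.831%), which do not overlap. Other DC-like cells made up 6.18% of fl/fl (5.54% to 6.87%) and 3.82% of cKO cells (3.29% to 4.42%), which do not overlap either. The libraries also differ in the other cells that these shares are taken over. Tumor epithelial-like cells numbered 782 in fl/fl and 182 in cKO, and B lineage-like cells 647 and 1346.

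Between the libraries, the direction for Ccr7, Fscn1, Ccl22 and Cacnb3 depended on how cells were chosen or values below zero were treated. Nudt17 and Socs2 had higher means in cKO cells in each of the 5 versions of the cluster compared. These versions are drawn from the same 2 libraries and are not separate checks. Over all cells of the Migratory DC-like cluster 4 of the 6 genes were lower by at least 0.5 in the cKO library and 1 was higher. Of the 2000 genes 1.55% were lower and 1.3% higher. The cluster was mixed unequally, since the Ifit3-led cells that resolution 2 left out were 19 of its cKO and 15 of its fl/fl cells. Ccr7 had a mean of 2.96 (SD 4.05, 40 cells) in cKO and 4.39 in fl/fl cells, a difference of -1.44. Ccl22 was at 0.79 (SD 4.94) against 1.92 (-1.14), Fscn1 at 3.96 (SD 4.90) against 5.07 (-1.11) and Cacnb3 at 3.51 (SD 4.71) against 4.08 (-0.56). Nudt17 was higher, at 3.03 (SD 4.35) against 2.51 (0.52), and Socs2 was at 2.28 (SD 3.58) against 2.21 (0.069). Each difference is smaller than the SD over the cells of either library, and in all 6 genes the cells of both libraries overlap up to the cap. Resolutions 1 and 2 both placed 44 fl/fl and 21 cKO cells in the cluster. In these cells the differences were -0.33 for Ccr7, -1.13 for Ccl22 and 0.31 for Fscn1. They were 0.83 for Cacnb3, 2.10 for Nudt17 and 0.94 for Socs2. Of the related lists, 3 of 9 regulatory and maturation genes were lower in cKO cells (Cd70 by -1.01, Cd200 by -0.80 and Il4i1 by -0.69) and none higher, and 1 of 8 cytoskeleton genes was lower (Tbc1d4 by -1.07). Of the 4 NF-kB genes Traf1 was lower (-0.83) and Bcl2a1d higher (0.53). Ccl17 (0.56) was the only one of 5 chemokine partners and Flt3 (0.55) the only one of 3 cytokine signal genes past 0.5, both higher, and none of the 9 antigen uptake genes was. The summed level of the 12 cDC1 markers was 0.23 in fl/fl and 2.37 in cKO Migratory DC-like cells. That of the 11 macrophage markers was -1.83 and -0.74, and that of the 10 monocyte markers -1.11 and 0.52. Other lists were lower in cKO cells. Among them, the 18 migratory DC markers were at 36.0 and 33.2 and the 9 cDC2 markers at 0.042 and -0.22. The 14 T cell markers were at -2.76 and -3.17, and the 8 erythroid markers at -0.54 and -0.81. The part of these cells or genes in the differences was not tested.

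**Figure D3:**
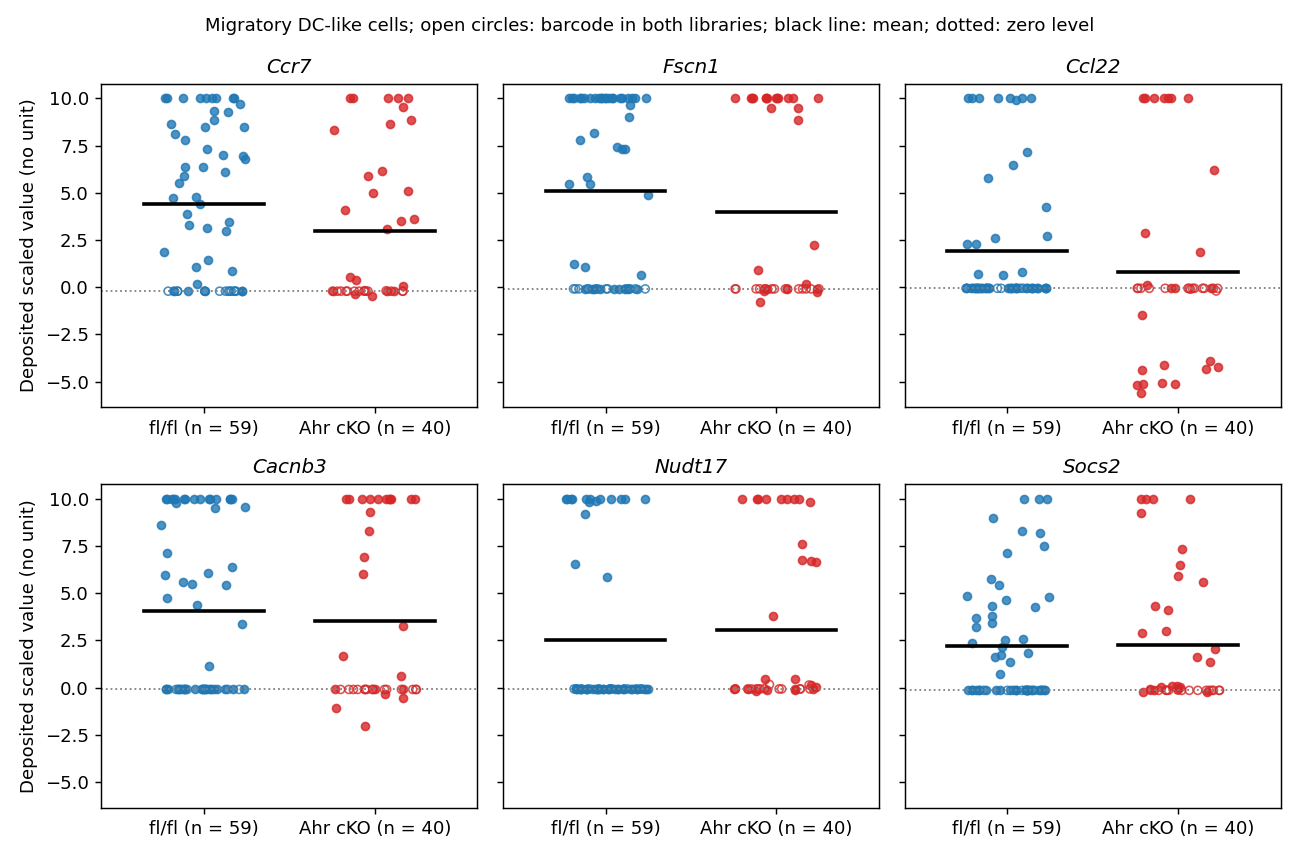
Deposited scaled value (vertical axis, no unit) of the 6 genes in each Migratory DC-like cell of the fl/fl (59 cells, blue) and the Ahr cKO library (40 cells, red). Open circles are cells whose barcode is in both libraries, black lines are means and dotted lines the zero level. The 14 open fl/fl circles lie at zero for all 6 genes, and 11 cKO cells lie at least 1 below zero for Ccl22.

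Cacnb3 changed sign and Fscn1 fell under the limit of 0.5 when cells with a shared barcode were left out, which are 15 of the 40 cKO and 14 of the 59 fl/fl cells. Without shared barcodes, 45 fl/fl and 25 cKO cells are left. Ccr7 was then at 4.85 in cKO and 5.82 in fl/fl cells (-0.97), Ccl22 at 1.30 and 2.54 (-1.24), and Fscn1 at 6.39 and 6.68 (-0.29). Cacnb3 was higher, at 5.67 and 5.37 (0.30), as were Socs2, at 3.74 and 2.95 (0.79), and Nudt17, at 4.87 and 3.32 (1.55). So 2 of the 6 were lower and 2 higher by at least 0.5, with 1.6% and 2.6% of all genes. At resolution 2, with 66 fl/fl and 26 cKO cells, none was lower and 4 were higher (0.9% and 2.7% of all genes): Nudt17 (1.92), Socs2 (1.22), Cacnb3 (1.09) and Fscn1 (0.84), while Ccr7 differed by 0.20 and Ccl22 by -0.082. Nudt17 was the only one of the 6 that was higher by at least 0.5 in all 3 sets of cells, and no gene was lower by that much in all 3. The 3 sets are not separate checks. They share the 44 fl/fl and 21 cKO cells that resolutions 1 and 2 both placed in the cluster, where Nudt17 differed by 2.10. The Nudt17 medians at resolution 1 differed by only 0.057, with the cells of shared barcode included. Without shared barcodes the Nudt17 median was -0.068 in fl/fl and 6.67 in cKO cells, and at resolution 2 it was -0.068 and 2.15. In the 27 cells that resolution 2 added, mean Nudt17 was lower in cKO (-0.11 in 5 cells) than in fl/fl cells (0.70 in 22 cells).

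**Figure D4:**
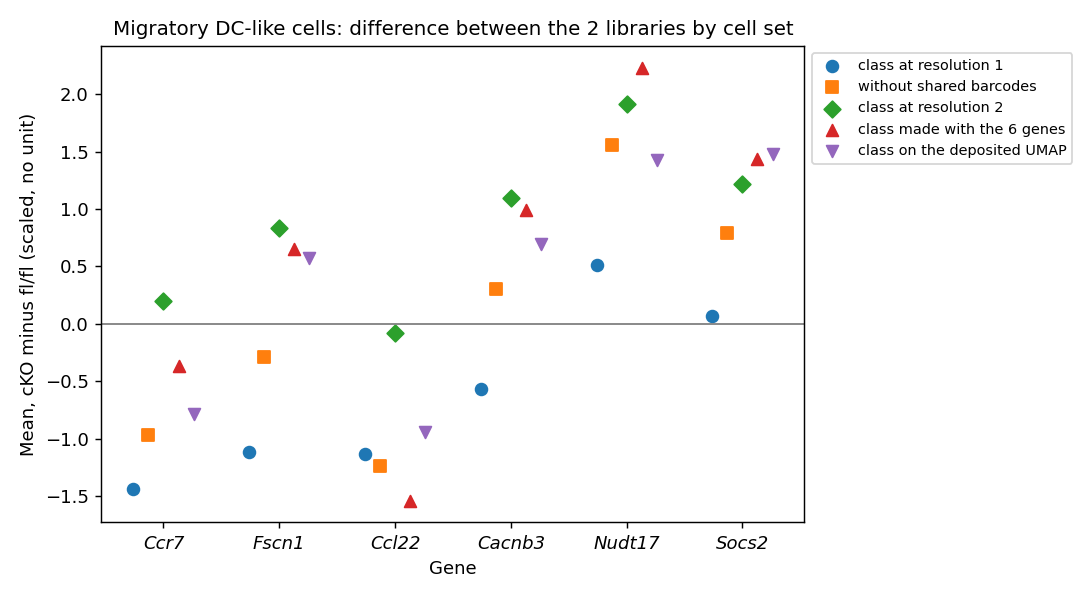
Difference of the mean scaled value, cKO minus fl/fl (vertical axis, no unit), of the 6 genes in Migratory DC-like cells, for 5 ways of choosing the cells (marker shapes). Ccr7 runs from -1.44 to 0.20, Fscn1 and Cacnb3 change sign, and Nudt17 and Socs2 lie above 0 in all 5. The 5 ways choose from the same cells and are not separate checks.

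Values moved below zero touch Ccl22 most. In 13 of the 40 cKO cells Ccl22 lies below its zero level, in 11 of them by at least 1, down to -5.57, a range that no fl/fl cell has. With such values set to the zero level the Ccl22 difference is 0.065 in place of -1.14, and an estimate that takes off the local shift of the cKO library gives 1.02. For the other 5 genes between 2 and 4 cKO cells lie below zero, and setting them to zero moved no difference by more than 0.1, though it put Cacnb3 at -0.47, under the limit of 0.5. The direction of Ccl22 between the genotypes is therefore not settled by these values.

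In no other cluster with at least 20 fl/fl cells did the libraries differ by 0.5 for any of the 6 genes. In the T cell-like cluster led by Tcf7 and Lef1, Ccr7 had a mean of 0.46 in 536 cKO cells (SD 1.33) and 0.43 in 346 fl/fl cells (SD 1.38). In the large B lineage-like cluster it was 0.14 in 1135 cKO cells (SD 1.04) and 0.27 in 565 fl/fl cells (SD 1.21), while in the B lineage-like cluster led by Ncl it was higher in cKO, at 0.27 in 201 cells (SD 1.10) against -0.033 in 78 cells (SD 0.55), a difference of 0.30. Socs2 was at 0.46 (SD 1.53, 139 cells) and 0.33 (SD 1.41, 537 cells) in the epithelial cluster led by Clu, and Cacnb3 at 0.30 (SD 0.70) and 0.17 (SD 1.15) there. Socs2 in Macrophage-like cells was at 0.28 (SD 1.30, 187 cells) in cKO and 0.19 (SD 1.40, 296 cells) in fl/fl cells. Over DC-like cells of all kinds (215 cKO and 380 fl/fl), the 6 differences lay between -0.21 (Ccr7) and 0.18 (Nudt17).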

How the data were processed

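The deposited tables hold, per the file headers, 2000 genes by cell with a scaled score, and UMAP positions, also used as a score. The submitters' processing notes name Cell Ranger 3.0.0, Seurat 3.1.4 and mm10/GRCm38, with no role or order. Cell filters, doublet removal and batch correction are not given in the sources used here. A correction of the cKO library is inferred from its values below the zero level.

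Cells were assigned to a library by their name and clustered jointly from 1994 genes with Python 3.11.15, scanpy 1.11.5, scikit-learn 1.9.0 and igraph 0.11.9 (30 principal components, 15 exact neighbours, Leiden at resolution 1). Clusters were named for the best marker family, where its mean difference reached 0.5 over at least 3 measured markers, the runner-up stayed under 0.5 of it and the top 10 genes did not favour another family. A DC cluster was called Migratory DC-like where that subtype scored highest and the next DC subtype stayed under 0.5 of it. It was called Other DC-like if not. Genes count as higher or lower from a scaled difference of 0.5. Shares carry exact Clopper-Pearson 95% intervals, and a count of 0 allows 3 cells of the total. The mean difference and the removal of a local shift were tried on real fl/fl cells with known changes added to their values.

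The 6 genes and all lists were chosen with earlier results of these data known. Resolution 1 was set in advance, but exact neighbours, run to convergence, were chosen after several clusterings had been seen together with values of the 6 genes. The alternatives without shared barcodes and with a floor at zero were also added after seeing the data. By rule, the text names the 6 genes, their most correlated genes (5 per gene over cells, 10 over clusters, of which the first are given), up to 4 genes per list by size of difference, and defining markers. Cell groups outside DCs, the Ifit and Bcl2l14 cells and Cd70, Ccl17 and Flt3 between the libraries were named after their values were seen.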

Additional observations from a re-analysis of the deposited data

How the results depend on the processing

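No paired analysis was possible because each genotype is 1 library, and no replicate could be left out. Of 122 recomputed values 76 stayed the same by the limits used (their interval, 0.5, or 1.5 times a count), 36 moved and 10 reversed; the causes were not tested. The alternatives with 15 components, resolution 0.5 and approximate neighbours gave no Migratory DC-like cluster, so the cluster itself depends on these choices. At resolution 2 the share of cKO cells was 0.568% and of cKO DC-like cells 12.4%, beside 17.3% of fl/fl DC-like cells. There, Ccr7 (0.20), Fscn1 (0.84) and Cacnb3 (1.09) reversed. With the 6 genes in the clustering the same shares were 0.481%, 10.5% and 13.6%, and Fscn1 (0.65) and Cacnb3 (0.99) reversed. On the deposited UMAP the cluster was 23.4% of fl/fl DC-like cells and held 76.8% of fl/fl cells with 3 or more of the genes, and Fscn1 (0.57) and Cacnb3 (0.70) reversed. Without shared barcodes Cacnb3 was 0.30. With cKO values below zero set to the zero level Ccl22 was 0.065, and with the local shift removed 1.02. With the fl/fl library clustered alone the share of DC-like cells was 19.6%. A limit of 2 or 4 genes in place of 3 gave 133 or 24 fl/fl cells, 31.6% or 95.8% of them Migratory DC-like. By medians over cells Ccr7 was -4.48, Fscn1 -5.94, Cacnb3 -1.23, Ccl22 0, Socs2 0.14 and Nudt17 0.057, under the limit of 0.5. These medians include the cells with a shared barcode. Without those cells the fl/fl and cKO medians were 6.39 and 4.98 for Ccr7, 9.64 and 10 for Fscn1 and 5.97 and 8.31 for Cacnb3. They were 2.18 and 2.91 for Socs2, -0.068 and 6.67 for Nudt17, and -0.056 in both for Ccl22. A marker rule for possible doublets took 25.1% of fl/fl and 24.1% of cKO cells, too many to count doublets by.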
